A study of Mus musculus with 4 samples.

Results

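*Rb1*, *Chd8*, *Supt16*, *Apex1*, *Parp2*, *Esd*, *Tpt1* and *Vdac2* are 8 genes of mouse chromosome 14 with known roles in growth control, chromatin, DNA repair and metabolism. They were chosen by symbol from the 24054 genes of each count table, when it was already known that the genes of chromosome 14 as a whole were higher in all 3 Morc3 rescue clones than in wild type. The difference between clones and wild type thus took part in the choice, and it is given here as a description of the 8 genes, without a test. All 8 passed the filter on low counts that left 13267 genes in the comparison, 465 of them on chromosome 14. The question was which of the 8 moved with their chromosome and which stayed near the wild-type level.

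RNA-seq was performed on mouse ES cells, which are embryonic stem cells, kept without feeder cells on gelatin in medium with serum and LIF. The wild-type group is 1 culture of the line wt26 (library wt26p46). The rescue group is 3 lines, T131-3C, T131-3D and T131-3M, named 3C, 3D and 3M below, of genotype Morc3 rescue. Each is a single clone of the Morc3 ko line KO27-2, itself a single clone made from wt26, and received the wild-type Morc3 coding sequence on a PiggyBac transposon under puromycin selection. A difference between the clones and wild type can therefore come from the Morc3 deletion, the added Morc3, the selection, or anything that the ko clone gained or lost when it was isolated, and these cannot be told apart here. There is 1 wild-type library, so every difference below shares its counts, and the spread is that between the 3 clones. In bulk RNA, more cells with a transcript and more RNA per cell cannot be told apart.

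The libraries held between 13620914 and 15479190 counts on genes in the clones and 18789457 in wild type. Levels are given in CPM, a gene's count as a share of its library on a common scale. Morc3 itself had 161 CPM in wild type and 655 (3C), 496 (3D) and 609 CPM (3M) in the clones. All 3 were above wild type, but the log2 fold change of 1.87 did not pass the test (edgeR adjusted p = 0.11). A list of 10 ES cell markers summed to 5392 CPM in wild type and to between 5480 and 5916 CPM in the clones. The 7 fibroblast markers summed to 32.9 CPM in wild type and to between 20.4 and 44.9 CPM in the clones, with *Col3a1*, *Dcn* and *Lum* at 0 in every library, and the 5 trophoblast markers to 11.3 CPM against 20.6 to 21.7 CPM. For primitive endoderm (6 markers) the sums were 6.92 CPM and 6.66 to 11.0 CPM, for neural cells (5 markers) 117 CPM and 82.4 to 114 CPM. The 5 mesoderm markers summed to at most 2.0 CPM in any library. The part of these markers in the results was not tested.

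Genes on a chromosome that is gained or lost usually follow its copy number at the RNA level, while the products of genes that work in complexes are often brought back toward normal later, as protein. Some genes are held nearer to the normal level already as RNA, which is called buffering or dosage compensation. The 8 genes are of both kinds: *Supt16*, *Rb1* and *Chd8* encode proteins that act in complexes with products of other chromosomes, whereas *Esd*, *Apex1* and *Parp2* encode enzymes. DNA copy number was not measured in the data used here. A ratio of 3 copies to 2, or 1.5-fold (0.58 on the log2 scale), is used below only as a mark on the scale.

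The 8 genes lie in 3 stretches of chromosome 14 (RefSeq positions on GRCm38.p6, the assembly of mm10). *Vdac2* is at chr14:21831561-21845879 on the plus strand. *Parp2* (chr14:50807897-50821301, plus strand) and *Apex1* (chr14:50924949-50927188, plus strand) lie close together, and *Supt16* (chr14:52160419-52197239) and *Chd8* (chr14:52198151-52258042) follow each other on the minus strand with 911 bases between them. *Rb1* (chr14:73192858-73325951, minus strand), *Esd* (chr14:74732151-74750765, plus strand) and *Tpt1* (chr14:75845256-75848303, plus strand) lie in the third stretch.

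Both DNA repair genes start beside a gene that is read in the opposite direction, with a short gap between the starts. The gap beside *Apex1* is shown because the genes on its sides had unlike values, as given below. Those beside the *Parp2* gap, *Rpph1* and *Parp2*, lay closer together. Both gaps are plus-strand sequence from RefSeq, from the last base of the neighbour to the first base of the repair gene in either annotation used. Capitals mark 4 motifs that were searched on both strands. The E-box was read as CACGTG, the CCAAT box by the letters in its name, the TATA box as the run TATAAA and the GC box as the run GGGCGG. In the printed gaps no motif overlaps another.
*Osgep* to *Apex1*, chr14:50924894-50924948: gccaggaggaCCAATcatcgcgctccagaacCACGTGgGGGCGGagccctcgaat
*Rpph1* to *Parp2*, chr14:50807772-50807840: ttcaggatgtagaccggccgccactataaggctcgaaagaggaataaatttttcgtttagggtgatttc
The 55 bases between *Osgep* and *Apex1* hold 1 E-box, 1 CCAAT box and 1 GC box, whereas the 69 bases between *Rpph1* and *Parp2* hold 0 of the 4 motifs.

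Promoter windows, from 250 bases before to 50 after a start, were found in the RefSeq table for 6 of the 8 genes (*Esd*, *Tpt1*, *Apex1*, *Parp2*, *Supt16* and *Chd8*). All 6 hold at least 1 GC box, which 35.7% of all 32851 windows of this length hold, and none holds a TATA box, which 13.6% hold. The *Apex1* window holds 3 E-boxes, and 29 windows, or 0.0883% of all, hold as many. The *Supt16* window holds the letters CCGGAA, the core of an ETS site, 3 times, as 0.852% of windows do. The GC content of the 6 windows ranged from 60.0% (*Parp2*) to 74.0% (*Tpt1*), against a median of 52.7% over all windows. A match is a run of letters only and says nothing about binding.

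Measured per length, the 8 genes span a wide range in wild type. *Tpt1*, which encodes a small, abundant growth-associated protein also known as TCTP, was highest with 456 CPM per kb of its longest transcript, and *Rb1*, the retinoblastoma tumour suppressor that holds back E2F transcription factors, was lowest with 2.76 CPM per kb. Between them came *Supt16* with 186, *Apex1* with 173 and *Vdac2* with 120 CPM per kb, and then *Esd*, *Chd8* and *Parp2* with 35.0, 34.6 and 33.4 CPM per kb. In the clones *Apex1* and *Supt16* were level within their spread, at 228 ± 8.0 and 234 ± 6.17 CPM per kb (SD, n = 3), and *Apex1* was the higher one in 3C and 3D. *Esd*, *Chd8* and *Parp2*, at 43.8 ± 1.65, 42.0 ± 0.448 and 42.0 ± 2.57 CPM per kb, did not differ from each other beyond their spread.

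**Figure D1:**
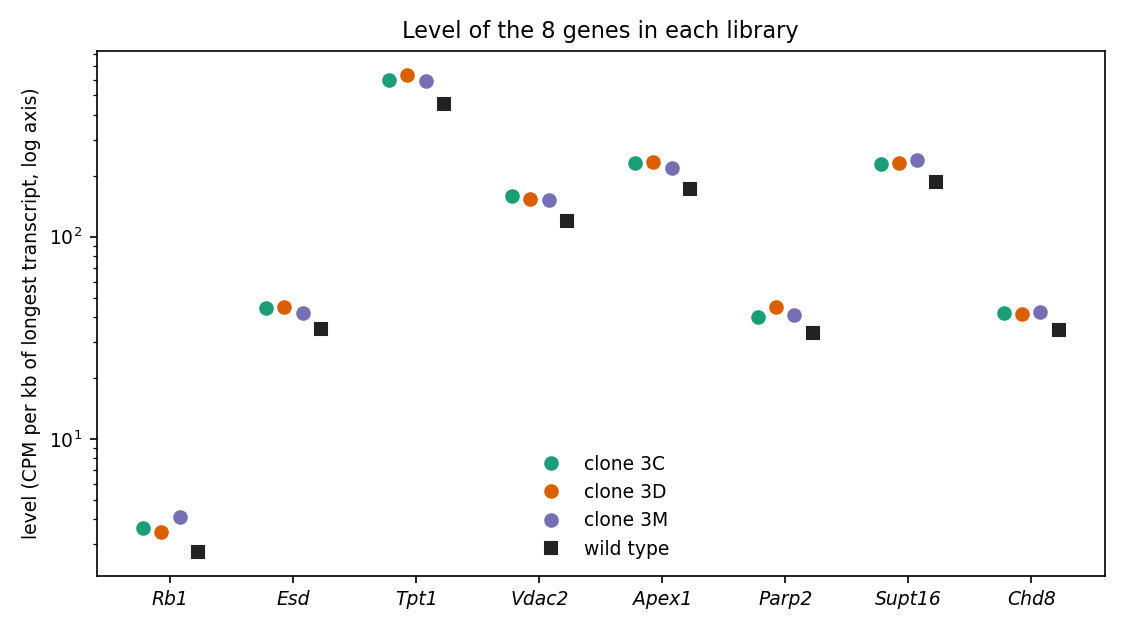
Level of the 8 genes in CPM per kb of the longest transcript (log axis), 1 point per library, circles for the clones and a black square for the single wild-type culture. For each gene the wild-type square lies below all 3 circles, while the genes range in wild type from 2.76 (*Rb1*) to 456 (*Tpt1*).

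*Rb1* had 245 counts in wild type, or 12.8 CPM, and 16.8 (3C), 16.1 (3D) and 19.0 CPM (3M) in the clones, from 227, 234 and 295 counts. All 3 clones were above wild type, 3M farthest. On the log2 scale of CPM, the differences from wild type were 0.39, 0.32 and 0.56, a mean of 0.42 ± 0.13 (SD, n = 3 clones) or 34.1% above wild type. Counting error is large at this depth. The exact 95% interval of the difference, which covers counting error only, ran from 0.06 to 0.59 in clone 3D and from 0.32 to 0.82 in clone 3M.

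*Tpt1* had 533 CPM in wild type and 696 (3C), 742 (3D) and 688 CPM (3M) in the clones. These were differences of 0.39, 0.48 and 0.37 with a mean of 0.41 ± 0.06, and the counting intervals, from 0.33 at the lowest to 0.52 at the highest, were narrow because each library held between 9386 and 10797 counts. Clone 3D stood above the other clones for *Tpt1*, and its interval (0.44 to 0.52) did not overlap that of 3C (0.34 to 0.43) or 3M (0.33 to 0.41). For *Esd*, which encodes S-formylglutathione hydrolase, an enzyme of formaldehyde detoxification, the wild-type value was 69.5 CPM and those of the clones were 88.7, 89.4 and 83.4 CPM. The mean difference of *Esd* was 0.33 ± 0.05.

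*Vdac2*, a channel of the mitochondrial outer membrane that also binds the cell death protein Bak, was measured at 244 CPM in wild type and at 325 (3C), 314 (3D) and 309 CPM (3M) in the clones. The clones lay close together, and the differences of 0.41, 0.37 and 0.34 gave a mean of 0.37 ± 0.04, or 29.5% above wild type.

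*Apex1* encodes the endonuclease that cuts DNA at sites that have lost a base, the central step of base excision repair. It had 214 CPM in wild type and 288 (3C), 289 (3D) and 271 CPM (3M) in the clones, with differences of 0.43, 0.43 and 0.34 and a mean of 0.40 ± 0.05. *Parp2*, which senses DNA breaks and marks them with poly(ADP-ribose), had 72.7 CPM in wild type and 86.7, 97.5 and 89.4 CPM in the clones. The mean difference of *Parp2* was 0.33 ± 0.09, with clone 3D at 0.42 and clone 3C at 0.25, the widest spread between clones after that of *Rb1*.

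*Supt16*, the large subunit of the histone chaperone FACT, which helps RNA polymerase pass nucleosomes, had 869 CPM in wild type and 1073 (3C), 1081 (3D) and 1127 CPM (3M) in the clones. Its differences of 0.31, 0.32 and 0.37 had a mean of 0.33 ± 0.04, or 25.9% above wild type. *Chd8*, a chromatin remodelling ATPase of the CHD family that binds beta-catenin, had 295 CPM in wild type and 355, 355 and 361 CPM in the clones. The clones of *Chd8* were nearly level, with differences of 0.27, 0.27 and 0.29, a mean of 0.28 ± 0.02 and a level 21.1% above wild type.

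**Figure D2:**
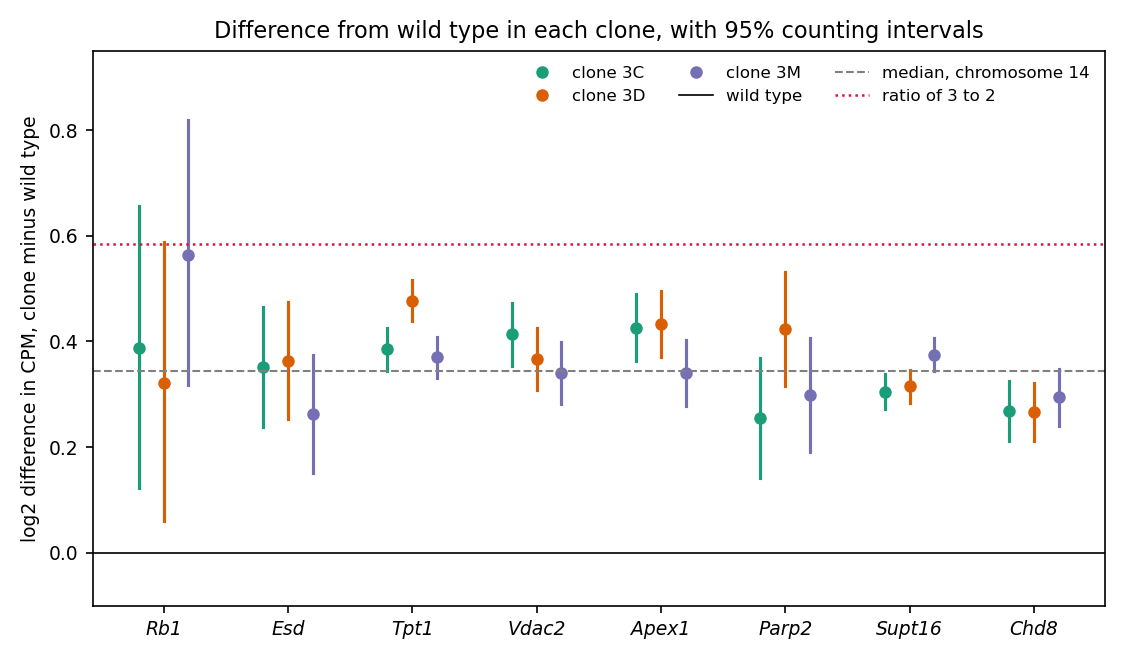
Log2 difference in CPM between each clone and the wild-type culture for the 8 genes, with exact 95% counting intervals as bars. All 24 points lie above 0, and the intervals of every gene but *Rb1* end below the dotted line at 0.58, the ratio of 3 to 2, in all 3 clones.

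The chromosome's difference took part in the choice of the 8 genes. In each clone, all 8 were measured above the wild-type library. Their mean differences ran from 0.28 to 0.42 with a median of 0.35, beside a median of 0.34 over the 465 genes of chromosome 14 and -0.02 over the 12290 genes outside chromosomes 13 and 14. All 8 were above wild type in all 3 clones, as were 78.5% of the tested genes of chromosome 14 and 28.7% of all tested genes, and nothing is read from the count because the chromosome's difference was part of the choice. The counting interval lay wholly above 0 in all 3 clones for all 8 genes, for 52.5% of the tested genes of chromosome 14 and for 7.43% of all tested genes. Nothing is read from this either, for the same reason, and the intervals cover counting error only. Since the clones share 1 wild-type library, an error in its count of a gene moves all 3 differences of that gene together.

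By counting error alone, which leaves out how the single wild-type culture varies, the intervals of 7 of the 8 genes ended below 1.5-fold. For *Esd*, *Tpt1*, *Vdac2*, *Apex1*, *Parp2*, *Supt16* and *Chd8* they ended below 0.58 in 3 of 3 clones. *Rb1* was the exception, with 0.58 inside its interval in 3 of 3 clones, and at its low count the intervals ran from near the wild-type level to beyond 1.5-fold. How many other genes of the chromosome had intervals that ended below 0.58 was not counted. Nothing particular to the 7 genes is therefore read from theirs. Of the 322 genes of chromosome 14 with a mean of at least 10 CPM, 28 (8.70%) had a mean difference at or above 0.58 and 14 (4.35%) one at or below 0, so that the middle ground held by the 8 genes is where most of the chromosome lay. Their places among the 465 genes of the chromosome ran from the 37.0th percentile (*Chd8*) to the 67.1th (*Rb1*).

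Set against the median of chromosome 14 in the same clone, *Chd8* lay lowest: its counting interval was below that median in clones 3C and 3D and held it in 3M. The interval of *Supt16* was below the median in 1 clone, whereas those of *Tpt1* and *Apex1* were above it in 2 clones and that of *Vdac2* in 1. The intervals of *Rb1*, *Esd* and *Parp2* held the median in all 3 clones. These distances from the median were small, from -0.07 for *Chd8* to 0.08 for *Rb1* in the mean over clones.

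Between the genes, the difference of *Chd8* was lower than those of *Rb1*, *Tpt1*, *Vdac2*, *Apex1* and *Supt16* in every clone. The 3 clones share 1 wild-type count per gene, so the same order in all 3 is not independent support, and the SDs here and below leave out the error of that count. *Supt16*, its direct neighbour, exceeded it by 0.06 ± 0.02 (SD, n = 3) and *Apex1* by 0.12 ± 0.07. The difference of *Esd* minus that of *Apex1* was -0.07 ± 0.005. This SD is smaller than counting alone gives for *Esd* (0.041) or *Apex1* (0.023), so it does not show how exact the difference is. The remaining neighbours in the order of the mean differences, such as *Parp2*, *Esd* and *Supt16* at 0.33 each, did not differ beyond their spread.

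The spread between clones was in the usual range for genes of their level, apart from *Chd8*. Over the 500 genes nearest to it in level, 6.6% had a smaller SD between the 3 clones than *Chd8* (0.015, against a median of 0.054), which is also less than the 0.020 that counting alone gives on average at this depth. For the other 7 genes this share ran from 29% (*Vdac2*) to 64.8% (*Parp2*). With 3 clones, an SD is itself a rough value.

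**Figure D3:**
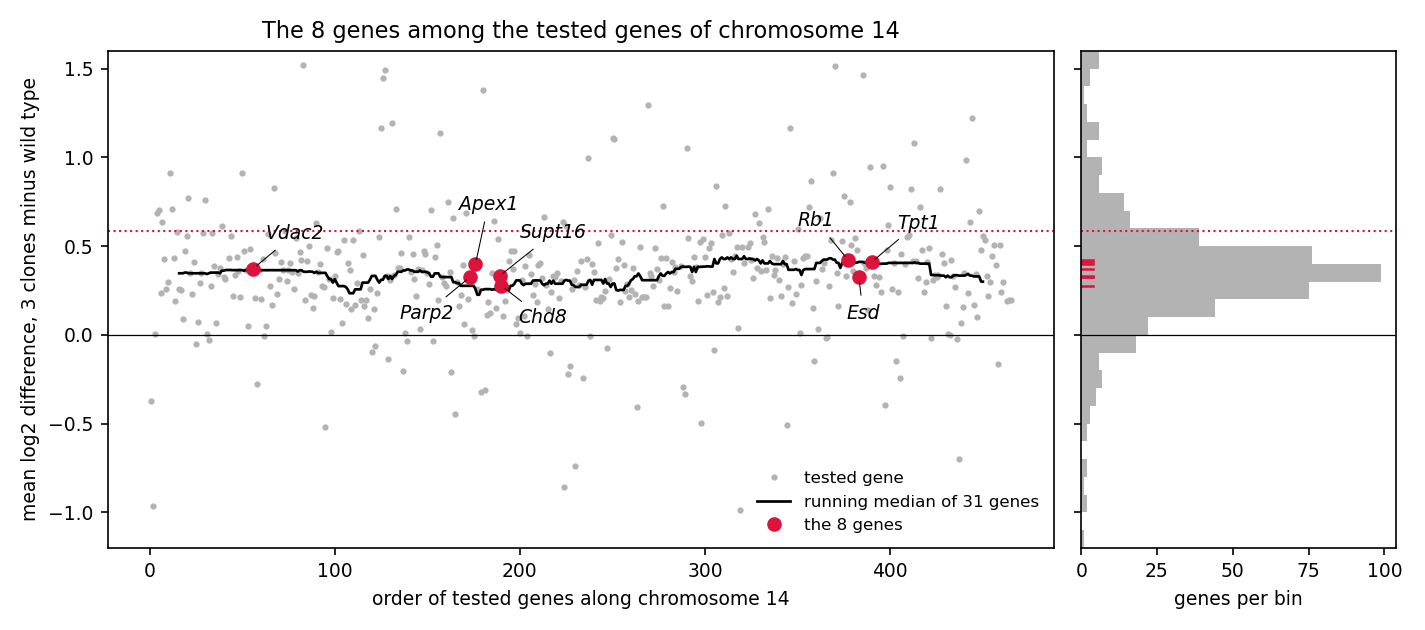
Mean log2 difference between the 3 clones and wild type for the 465 tested genes of chromosome 14 in their order along the chromosome (left) and as a histogram (right), with the 8 genes in red, a running median of 31 genes in black and the ratio of 3 to 2 as a dotted line. The 8 genes lie between 0.28 and 0.42, with *Apex1* farthest from the running median (0.40 against 0.26). The 5 genes outside the axis are counted in the outermost bins.

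The local level differed along the chromosome, and the 8 genes were next compared with the 10 nearest tested genes, 5 on each side. The neighbours of *Apex1* had a median mean difference of 0.23 and those of *Parp2* of 0.24, while those of *Esd* and *Rb1* had 0.44 and 0.52. These sets overlap where the genes lie close together, and *Supt16* and *Chd8* are in each other's. *Apex1* was above its neighbours' median in 3 of 3 clones, by 0.17 ± 0.04 (SD, n = 3), and *Parp2* and *Supt16* were above theirs in 3 of 3 clones too, by 0.08 ± 0.08 and 0.09 ± 0.07. *Esd* was below its neighbours in 3 of 3 clones, by a difference of -0.11 ± 0.06, and *Rb1* likewise, by -0.10 ± 0.08. Against its 20 nearest tested genes, *Rb1* had a difference of -0.04 ± 0.10 and lay above them in clone 3M, by 0.05. *Vdac2* was 0.02 ± 0.02 above its neighbours, and the differences of *Tpt1* (0.05 ± 0.08) and *Chd8* (-0.04 ± 0.09) changed sign between clones.

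On the left of *Apex1*, the nearest tested gene stood apart from it. *Osgep*, which encodes an enzyme of tRNA modification and starts 55 bases from *Apex1* on the other strand, had 50.3 CPM in wild type and 50.04 (3C), 50.8 (3D) and 49.5 CPM (3M) in the clones. The clones lay at the wild-type level (mean difference -0.004 ± 0.02, counting intervals from -0.16 to 0.16), whereas *Apex1*, on the far side of the gap printed above, was higher by 0.40 in the same libraries. *Tmem55b*, on the other side of *Apex1*, was higher by 0.26 ± 0.01. At *Parp2*, *Tep1*, a telomerase-associated protein gene on the right and away from the printed gap, had a mean difference of 0.03 ± 0.11. *Rpph1*, the RNA of ribonuclease P across the gap on the left, had 0.20 ± 0.05, nearer to the 0.33 ± 0.09 of *Parp2*.

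Not every neighbour was lower. *Ccnb1ip1*, which lies in the same region and was picked for mention after its values were seen, had 16.4 CPM in wild type and 26.8, 25.2 and 27.6 CPM in the clones, a mean difference of 0.69 ± 0.07. *Lpar6*, which lies on the other strand inside *Rb1*, held 126 counts in the wild-type library and 154, 152 and 182 in the smaller clone libraries, a mean difference of 0.75 ± 0.09 beside the 0.42 of *Rb1*, and *Rcbtb2* on the other side had 0.33 ± 0.23. The neighbours of *Chd8* and *Supt16* were *Rab2b*, at 0.11 ± 0.11, and *Rpgrip1*, at 0.54 ± 0.06 but with only 53 counts in wild type and 54 to 67 counts in the clones. For *Vdac2*, *Samd8* had 0.38 ± 0.07 and *Comtd1* 0.21 ± 0.14, and for *Esd*, *Sucla2* had 0.48 ± 0.04 and *Lrch1* 0.30 ± 0.17. Beside *Tpt1*, *Gm4285* was at 11 counts in the wild-type library and 14 to 21 in those of the clones (0.94 ± 0.34), and *Snora31*, a small nucleolar RNA inside *Tpt1*, had 0.33 ± 0.12.

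**Figure D4:**
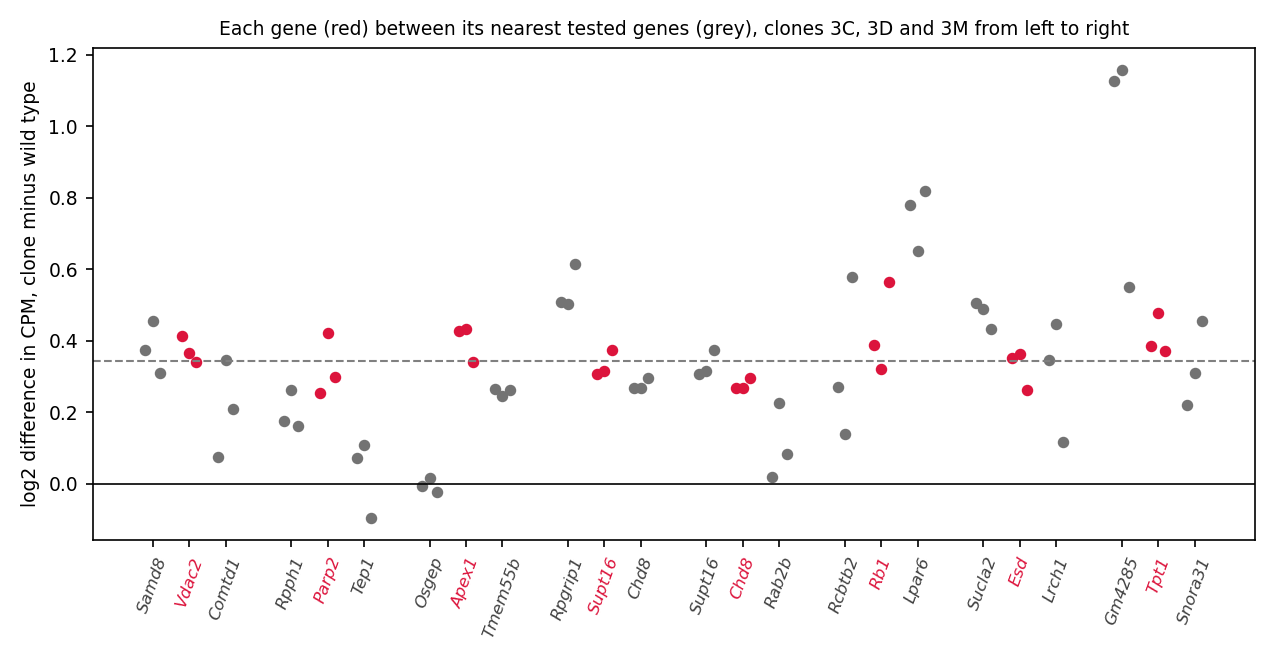
Log2 difference in CPM from wild type, for 3C, 3D and 3M from left to right, for each of the 8 genes (red) and its nearest tested gene on either side (grey), with the median of chromosome 14 as a dashed line. *Osgep* and *Tep1* lie near 0 beside *Apex1* and *Parp2*, which are higher.

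Strand mattered for the overlapping genes. The ends of *Apex1* and *Tmem55b* overlap on opposite strands in the GENCODE annotation, as do those of *Supt16* and *Rpgrip1*, and the column that ignores strand held between 14.3% and 17.1% of the stranded counts of *Apex1* and between 86.6% and 87.5% of those of *Supt16*. For the other 6 genes it held between 99.7% and 101% of them. Without strand, the mean difference of *Apex1* was 0.41, beside 0.40 with it.

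The products of the 8 genes work with or beside those of genes on other chromosomes, and 10 such partners were compared next. *Ssrp1*, the other subunit of FACT, had 497 CPM in wild type and 497 (3C), 503 (3D) and 497 CPM (3M) in the clones, which gave 0.01 as the log2 fold change (standard error 0.06, edgeR adjusted p = 0.98). The count of *Supt16* per count of *Ssrp1* was 1.75 in wild type and 2.19 ± 0.07 in the clones (SD, n = 3), above wild type in 3 of 3. *Parp1*, the main poly(ADP-ribose) polymerase, had 1151 CPM in wild type and 1096, 1153 and 1202 CPM in the clones, and the ratio of *Parp2* to *Parp1* counts was 0.0631 in wild type and 0.0794 ± 0.005 in the clones.

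The relatives of *Rb1* and *Vdac2* did not pass the test either. *Rbl1* and *Rbl2*, the other pocket proteins of the Rb family, had log2 fold changes of -0.04 (standard error 0.13) and 0.16 (standard error 0.18), and *Vdac1* and *Vdac3* of 0.08 (standard error 0.09) and 0.08 (standard error 0.08). The ratio of *Rb1* to *Rbl1* counts was 0.420 in wild type and 0.584 ± 0.06 in the clones, and that of *Vdac2* to *Vdac1* counts 0.425 and 0.524 ± 0.04. *Apex2*, a second enzyme of the *Apex1* kind, had a log2 fold change of 0.04 (standard error 0.13), and *Eef1a1*, the translation elongation factor that has been linked to *Tpt1*, one of 0.09 (standard error 0.05). *Rbl2*, *Vdac3* and *Eef1a1* were above wild type in 3 of 3 clones, by less than *Rb1*, *Vdac2* and *Tpt1* in each of them.

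*Chd7* and *Adh5* lay below wild type in 3 of 3 clones without passing the test. *Chd7*, a remodeller of the same family as *Chd8*, had 111 CPM in wild type and 99.5 (3C), 63.5 (3D) and 96.7 CPM (3M) in the clones, so that clone 3D stood apart (log2 fold change -0.36, standard error 0.24, edgeR adjusted p = 0.64). *Adh5*, which makes the substrate of *Esd* from formaldehyde and glutathione, had 292 CPM in wild type and 247, 268 and 249 CPM in the clones (log2 fold change -0.20, standard error 0.07, edgeR adjusted p = 0.46). None of the 10 partners passed an edgeR adjusted p of 0.01, and 1, *Adh5*, had an unadjusted p under 0.05. For all 10 pairs the ratio of gene to partner was above wild type in 3 of 3 clones, which largely restates the differences by which the 8 genes were chosen, and the size ran from 21.3% (*Rb1* to *Rbl2*) to 62.3% (*Chd8* to *Chd7*). Clone 3D set the last value, with a *Chd8* to *Chd7* ratio of 5.59 against 3.57 and 3.74 in the other clones and 2.65 in wild type.

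**Figure D5:**
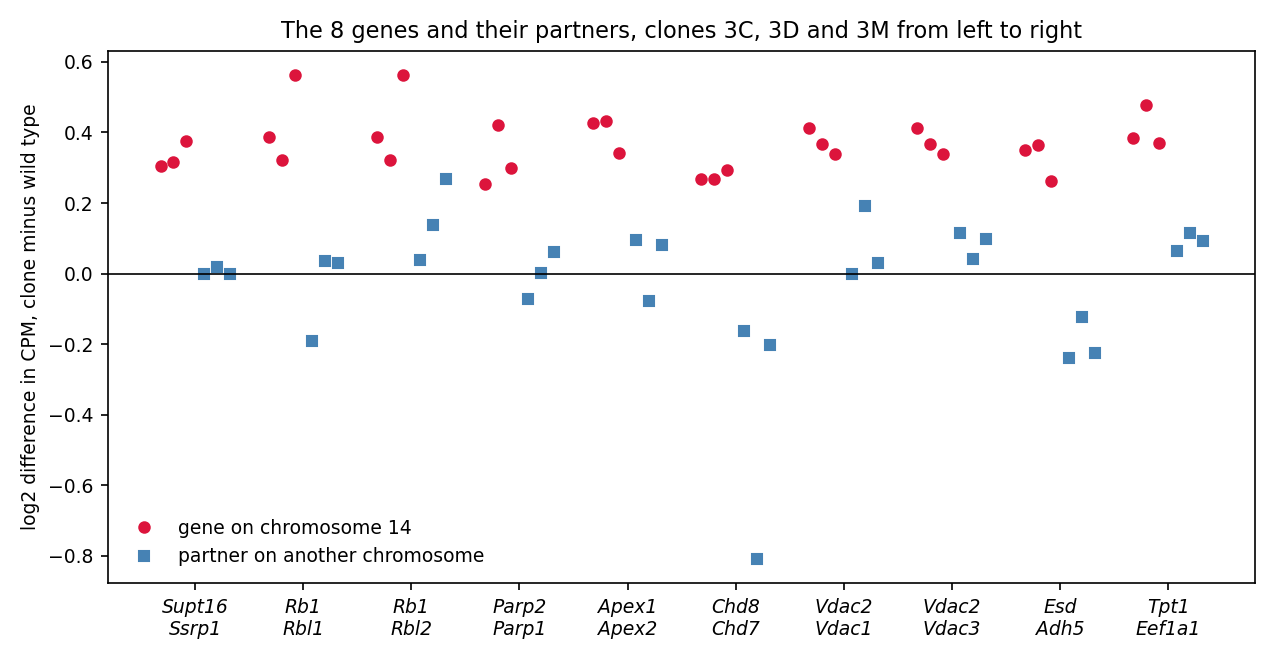
Log2 difference in CPM from wild type, for 3C, 3D and 3M from left to right, for each gene (red circles) and its partner on another chromosome (blue squares). The red circles lie between 0.25 and 0.56, and the blue squares between -0.81 (*Chd7* in clone 3D) and 0.27 (*Rbl2* in clone 3M).

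Genes of the same pathways were taken from 8 lists, with 130 genes tested outside chromosome 14. None was called by edgeR's quasi-likelihood test at an adjusted p of 0.01, the smallest adjusted p being 0.19, and 0 were called by DESeq2 or limma-voom. At an unadjusted p under 0.05, 7 were higher and 8 lower, out of 130, beside 10.3% of all genes. Over all genes, edgeR called 1 (0.00754%) and DESeq2 64 (0.658% of those with an adjusted p). The gene called by edgeR, named here after its values were seen, was *Ddx3y*, an RNA helicase gene of the Y chromosome, which had 922 counts in the wild-type library but 5, 0 and 1 in those of the clones. The median log2 fold change of the 130 genes was -0.01, beside 0.01 for all genes. Of the 130 genes, 39 were above and 40 below wild type in all 3 clones, and over all genes the shares were 28.7% above and 28.4% below.

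The targets that *Rb1* restrains through E2F were looked at in a list of 20 genes of DNA replication. Of these, 12 were above wild type in all 3 clones and 2 below, with a median log2 fold change of 0.08, and none was called. *Rrm1* and *Rrm2*, the subunits of ribonucleotide reductase, had 0.21 (standard error 0.07) and 0.20 (standard error 0.06), *Cdt1*, a licensing factor of replication, had 0.22 (standard error 0.08), and *Rpa1* was lowest with -0.05 (standard error 0.07). These genes were picked for mention by their unadjusted p, except *Rpa1*. In the list of the Rb family and E2F, with 22 genes and a median of 0.004, 7 were above and 5 below in all 3 clones, from *Ccnd2* (cyclin D2, 1.43, standard error 0.60, with clone 3C at 0.29 and the others at 1.73 and 1.79) to *Tfdp2* (-0.18, standard error 0.13).

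Base excision and single-strand break repair, the pathway of *Apex1* and *Parp2*, was compared next. Of its 21 genes outside chromosome 14, 10 were below in all 3 clones and 2 above, with a median log2 fold change of -0.09, and none was called. *Mutyh*, a glycosylase that removes mispaired adenine, was lowest with -0.50 (standard error 0.15, edgeR adjusted p = 0.35), and *Smug1* highest with 0.11 (standard error 0.13). The list also holds *Neil2* and *Parg* of chromosome 14, which had log2 fold changes of 0.25 (standard error 0.18) and 0.17 (standard error 0.08) and were above wild type in 3 of 3 clones.

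The chromatin lists held no called gene either. Among 16 genes of FACT and other histone chaperones, 3 were above and 6 below wild type in all 3 clones, with a median of -0.01. *Atrx*, a remodeller that works with the H3.3 chaperone Daxx, had the smallest adjusted p of all the lists (log2 fold change 0.38, standard error 0.06, edgeR adjusted p = 0.19, with 347 CPM in wild type and 452 ± 5.56 CPM in the clones), and *Hira* was lowest with -0.15 (standard error 0.07). Among 13 CHD remodellers and *Chd8* partners, 3 were above and 5 below, with a median of -0.009, from *Ctnnb1*, the beta-catenin gene (0.16, standard error 0.07), to *Chd5* (-0.68, standard error 0.14, edgeR adjusted p = 0.23).

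The lists around *Vdac2*, *Tpt1* and *Esd* were small. Of 14 genes of the mitochondrial outer membrane, 3 were above and 4 below in all 3 clones (median -0.02), from *Bcl2l1* (0.24, standard error 0.15) to *Samm50* (-0.30, standard error 0.10). Of 13 translation genes whose mRNAs start, like that of *Tpt1*, with a pyrimidine tract, 6 were above and 2 below (median 0.07), from *Btf3* on chromosome 13 (0.30, standard error 0.17) to *Eef1d* (-0.17, standard error 0.06). Of 11 genes of formaldehyde and glutathione detoxification, 3 were above and 6 below (median -0.04), from *Gpx4* (0.34, standard error 0.11) to *Hagh* (-0.22, standard error 0.16).

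The genes whose differences in the 3 clones were most like those of the 8 genes were sought among 8543 genes with a mean of at least 10 CPM, by the root mean square (RMS) distance over the clones. For *Apex1* the nearest was *Mettl6*, at 0.004, and then *Wbp4*, both on chromosome 14. Both of the nearest genes also lay on chromosome 14 for *Rb1* (*Kctd9* and *Ajuba*) and *Esd* (*Ccser2* and *Nufip1*), and 1 of the pair for *Vdac2* (*Eaf1*, with *Hist1h3b*) and *Supt16* (*4931414P19Rik*, after *Galk2* at 0.004). For *Parp2* (*Sh3bp1* and *Hist1h3a*) and *Chd8* (*Bsdc1* and *Twf1*) they lay elsewhere. A likeness over 3 clones is shared by many genes: between 73 (*Rb1*) and 389 (*Chd8*) of the 8543 genes lay within an RMS of 0.1, and of these between 27 and 95 were on chromosome 14.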

How the data were processed

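RNA-seq counts of 4 libraries were analysed, 3 Morc3 rescue clones and 1 wild-type culture, grouped by the genotype and cell line given in the labels. According to the methods, the authors mapped 50 bp read pairs to mm10 using STAR and then deposited raw counts of uniquely mapped pairs per gene, with an unstranded column and one per strand. Which gene models were counted is not stated in the sources used here. The stranded column that fits the directional kit (the fourth) was used, and the 4 rows that name no gene were left out.

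Counts were scaled and tested over all genes in R 4.3.3 with edgeR 4.0.16 (TMM, filterByExpr, glmQLFit without the legacy option, glmQLFTest, Benjamini-Hochberg adjusted p of 0.01), with all 4 libraries in 1 fit. The spread is that between the 3 clone lines, with 1 library each, and the wild-type library is assumed to vary alike. Standard errors are the size of the log2 fold change over the square root of F. Per-clone differences used log2 CPM with a prior count of 2. Counting intervals of a ratio are exact 95% (Clopper-Pearson) and cover counting error only. The 8 genes were part of the all-gene fit, but no test result is given for them, because their difference took part in the choice. The 8 genes, their partners and the lists were chosen with earlier results of these data known. Symbols were placed with RefSeq GRCm38.p6 (22542 of 24054 directly, 1352 by synonym, 160 not). Strands and transcript lengths were taken from GENCODE M21.

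Genes were named by rule: the 8 genes, Morc3, their partners, the nearest tested gene on each side, the 2 most alike genes by RMS, and in each list the called genes and the highest and lowest. Some genes that the rule names are not reported here. Alternatives were DESeq2 1.42.0, limma-voom (limma 3.58.1), other scalings, filters, columns and thresholds, a prior count of 0.5, edgeR's legacy method (added after seeing the data), and each clone left out. The steps were tested on simulated data with far larger changes than those of the 8 genes. That test does not measure how many small changes are missed. The ko libraries and the other assays of the study were not analysed here.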

Additional observations from a re-analysis of the deposited data

Results flagged for a closer look

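The strand opposite to the genes, which the comparisons do not use, held few counts. For *Tpt1* it held 46 counts over the 3 clones and 9 in wild type, a rate 2.24 times that of wild type after scaling (exact 95% interval 1.08 to 5.20, counting error only, with 8 genes looked at). It was noted because its interval lies above 1, the level of the wild-type library. These were between 0.0885% and 0.181% of the counts on the sense strand, which was itself higher in the clones. The cause was not tested.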

How the results depend on the processing

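Each of the 8 genes kept its direction under all alternatives: the 64 values, under DESeq2 size factors, TMM that left out genes with more than 1% of all counts, TMM from genes outside chromosomes 13 and 14, the unstranded column, a prior count of 0.5 and each clone left out, were all above 0 (0.27 to 0.47) and within 1 SD between clones of the values given. With a clone left out this could hardly come out otherwise, since each gene was above wild type in every clone. A mean that loses 1 clone also moves by less than 1 SD. The direction itself took part in the choice of the genes, so nothing is read from its being kept. The median of the 8 genes lay between 0.35 and 0.37. *Chd8*, below its 10 nearest genes, was above its 20 nearest, by 0.025. Leaving out a clone gave medians from 0.01 to 0.05 for the 8 genes minus their neighbours.

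The number of genes called depended on the tool and on the clones. It was 1 with edgeR, 64 with the DESeq2 Wald test, and 0 with limma-voom, with at least 10 counts in every library and with edgeR's legacy method. With each clone left out it ranged from 0 (without 3M) to 420 (without 3D), and the calls among the pathway lists from 0 to 5, the 5 without 3D all being higher. Of the 420 genes, 141 lie on chromosome 13 and 65 on chromosome 14. The cause was not tested. No paired analysis was possible because the groups share fewer than 2 replicate numbers. With 1 wild-type library, its own error cannot be measured, and at the depth of *Rb1* (227 to 295 counts) the counting interval in clone 3C ran from 0.12 to 0.66.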
